A study of Mus musculus with 18 samples.

Results

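The Ypel (Yippee-like) family has 5 members in the mouse, *Ypel1* to *Ypel5*, out of 51912 genes counted in primary cortical astrocyte cultures treated with ethanol. The family was selected on the ethanol difference of *Ypel4* in these same libraries, so the ethanol values of *Ypel4* are given as a description without a test. The other 4 members entered by family name. Cultures were made from postnatal day 0 cortices of mice that were all hemizygous for the Aldh1l1-EGFP/Rpl10a transgene, males and females in equal number. They came from hemizygous mice of line JD130Htz (B6;FVB stock) crossed to C57BL/6J. The cells were grown for 14 d, replated and grown for 6 d. Dishes then spent 24 h without serum and 24 h in serum-free medium with 50 mM ethanol or without ethanol (0 mM, control).

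In TRAP (translating ribosome affinity purification), RPL10A, a protein of the ribosome, is fused to EGFP and pulled down with antibodies against GFP, and the *Aldh1l1* promoter, which is active in astrocytes, drives the fusion. RNA that came down with these ribosomes is the IP fraction. Input is an aliquot of the same lysate from before the pull-down, with RNA of every cell type in the dish. There were 6 IP control, 6 IP ethanol, 3 input control and 3 input ethanol libraries, 18 in all. The input libraries came from dishes 4 to 6 of each treatment, which also gave an IP library. Each library stands for 1 dish of pooled cortical cells, and nothing in the labels ties dishes to separate litters or culture preparations, so p-values measure the spread between dishes. The libraries held 74239854 to 132810705 read pairs on genes, with a median of 84119135. *Aldh1l1* was at 375 ± 14.9 CPM in IP (SD, n = 12) and 181 ± 9.87 CPM in input (n = 6), where CPM is the gene's part of all read pairs on genes, scaled for library size and composition. Astrocyte markers summed to 1799 to 2000 CPM in IP and 1167 to 1247 CPM in input, while microglial markers summed to 12.3 to 16.2 CPM and 70.6 to 85.3 CPM.

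Yippee-like proteins are small, zinc-binding proteins that are conserved from yeast to humans and are built almost wholly of a single domain, the Yippee domain. Members have been found near the centrosome, the spindle poles and the midbody of dividing cells. YPEL3 is known as a growth-suppressing product of a p53-induced gene. YPEL5 associates with the CTLH complex, a ubiquitin ligase that is the counterpart of the yeast GID complex. YPEL4 is known from red blood cells, where it is needed for the integrity of the membrane, and YPEL1 can give cultured fibroblasts an epithelial shape.

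All 5 genes are on different chromosomes (GRCm38, GENCODE M21). *Ypel1* (ENSMUSG00000022773) spans chr16:17069696-17087045 on the plus strand and *Ypel2* (ENSMUSG00000018427) chr11:86936425-86993707 on the minus strand. *Ypel3* (ENSMUSG00000042675) is at chr7:126776955-126780514, *Ypel4* (ENSMUSG00000034059) at chr2:84734058-84738655 and *Ypel5* (ENSMUSG00000039770) at chr17:72836453-72851195, all on the plus strand. The coding sequences compared had 393 bases in *Ypel1* (another annotated transcript of it has 357), 360 in *Ypel2* and *Ypel3*, 384 in *Ypel4* and 366 in *Ypel5*. *Ypel1* to *Ypel4* were 70.8% to 82.2% identical to each other over aligned coding bases, and *Ypel5* was 55% to 59.2% identical to any of them. Shared runs were measured because near-identical genes can share reads. The longest stretch found in transcripts of a pair of members was 25 bases, for *Ypel1* and *Ypel3*. Within the coding sequences compared, the longest shared run was 23 bases, in *Ypel1* and *Ypel2* and, with other bounds, in *Ypel2* and *Ypel3*. The run of *Ypel1* and *Ypel2* is shown with the same stretch of the other members to make visible how the genes differ where a pair of them is identical. Each lies within 1 coding exon, written 5′ to 3′ on the gene's strand, and capitals mark bases that differ from the run shared by *Ypel1* and *Ypel2*.
Ypel1, chr16:17081616-17081638: gggcgagcctacctcttcaactc
Ypel2, chr11:86945936-86945958: gggcgagcctacctcttcaactc
Ypel3, chr7:126778072-126778094: ggAcgTgcctacctcttcaactc
Ypel4, chr2:84737082-84737104: ggCcgGgcctacctGttTaactc
Ypel5, chr17:72846420-72846442: ggTAgagcAtTTctTttTaacAA
In this stretch *Ypel3* differed from the shared run at 2 bases, *Ypel4* at 4 and *Ypel5* at 9.

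RefSeq windows (GRCm38.p6) of 250 bases before the start of transcription were read for all 5 members. *Ypel1* to *Ypel4* had, in both fractions, higher levels in every ethanol library than in any control library, and *Ypel5* had so in input. Such a gap in this direction was found in 5.09% of genes in IP and 14.0% in input, and *Ypel4* was chosen for its ethanol difference. The parts of the windows that lie outside every annotated exon are shown, with matches to the motifs searched in capitals.
Ypel2, chr11:86993763-86994012, minus strand: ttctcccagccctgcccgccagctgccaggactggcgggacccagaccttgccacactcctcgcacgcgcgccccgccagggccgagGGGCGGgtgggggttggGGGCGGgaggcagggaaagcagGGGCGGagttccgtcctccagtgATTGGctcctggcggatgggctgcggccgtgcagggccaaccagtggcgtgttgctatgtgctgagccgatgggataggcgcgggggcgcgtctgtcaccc
Ypel3, chr7:126776819-126776954, plus strand: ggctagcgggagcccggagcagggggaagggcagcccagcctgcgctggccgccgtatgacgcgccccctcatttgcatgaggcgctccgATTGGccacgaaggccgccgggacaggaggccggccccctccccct
Ypel4, chr2:84733954-84734057, plus strand: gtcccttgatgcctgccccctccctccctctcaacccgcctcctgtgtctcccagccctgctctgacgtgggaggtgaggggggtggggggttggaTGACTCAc
Ypel5, chr17:72836378-72836452, plus strand: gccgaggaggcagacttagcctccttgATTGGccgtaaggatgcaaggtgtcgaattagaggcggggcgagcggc
Ypel5, second start, chr17:72837286-72837312, plus strand: gggccgcgctcgcaccCCGCCCGCCCc
The whole window of *Ypel1* lies in an annotated exon and is not shown. Motifs were searched on both strands, and the list of motifs was chosen with these windows in view. The AP-1 motif (TGACTCA) was found in *Ypel4*, near the end of the stretch shown above, and 4.46% of 32851 windows of the genome's genes hold it. A CCAAT box (these 5 letters) was found in *Ypel2*, *Ypel3*, *Ypel4* and *Ypel5* and in 33.8% of all windows. A GC box (GGGCGG) was found in *Ypel1*, *Ypel2* and *Ypel5* and in 32.7% of all windows. The CCAAT box of *Ypel4* and the GC boxes of *Ypel1* and of the first start of *Ypel5* are not within the stretches shown. They lie in the parts of the windows that overlap annotated exons. No member's window held a TATA box (TATAAA), which 12.4% of all windows hold. An E-box (CACGTG), in 6.02% of all windows, and a forkhead motif (GTAAACA), in 3.17%, were also not found. The windows were GC-rich, with 74% in *Ypel1*, 72% in *Ypel2*, 68.8% in *Ypel3*, 62% in *Ypel4* and 70.4% and 76.8% at the first and second start of *Ypel5*, against a median of 52.4%. These matches describe the letters and say nothing of what binds there.

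All 5 members were expressed in every library and passed the filter on low counts, as did 24495 genes in all. Per kb of the longest transcript, *Ypel3* had the highest level and *Ypel5* the next in all 4 groups. *Ypel3* was at 68.0 ± 3.26 CPM per kb in IP control (SD, n = 6), 82.0 ± 5.21 in IP ethanol (n = 6), 90.5 ± 1.86 in input control (n = 3) and 103.5 ± 3.08 in input ethanol (n = 3). *Ypel5* was at 29.8 ± 0.88, 30.0 ± 0.97, 28.4 ± 0.46 and 29.0 ± 0.20 CPM per kb in the same groups. The other members were lower by an order of magnitude or more than *Ypel3*. In IP control, *Ypel2* was at 3.64 ± 0.21 CPM per kb and *Ypel4* at 3.41 ± 0.18, and their ranges over libraries overlapped. Within each IP control library, *Ypel2* was above *Ypel4*, and the difference was not tested. In IP ethanol, *Ypel4* (5.14 ± 0.44 CPM per kb) stood above *Ypel2* (4.33 ± 0.12) without overlap. In input control and input ethanol the order was the opposite, with *Ypel2* at 5.19 ± 0.07 and 6.04 ± 0.08 and *Ypel4* at 2.89 ± 0.14 and 4.81 ± 0.24 CPM per kb. *Ypel1* was lowest in every group, from 1.24 ± 0.05 in IP control to 2.27 ± 0.17 CPM per kb in input ethanol. The places of *Ypel2*, *Ypel4* and *Ypel1* depend on the length and the strand used. With the length of all exons together, *Ypel2* was above *Ypel4* in all 4 groups, and on the annotated strand *Ypel1* (2.27 ± 0.09) and *Ypel4* (2.27 ± 0.08 CPM per kb) overlapped in input control.

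**Figure D1:**
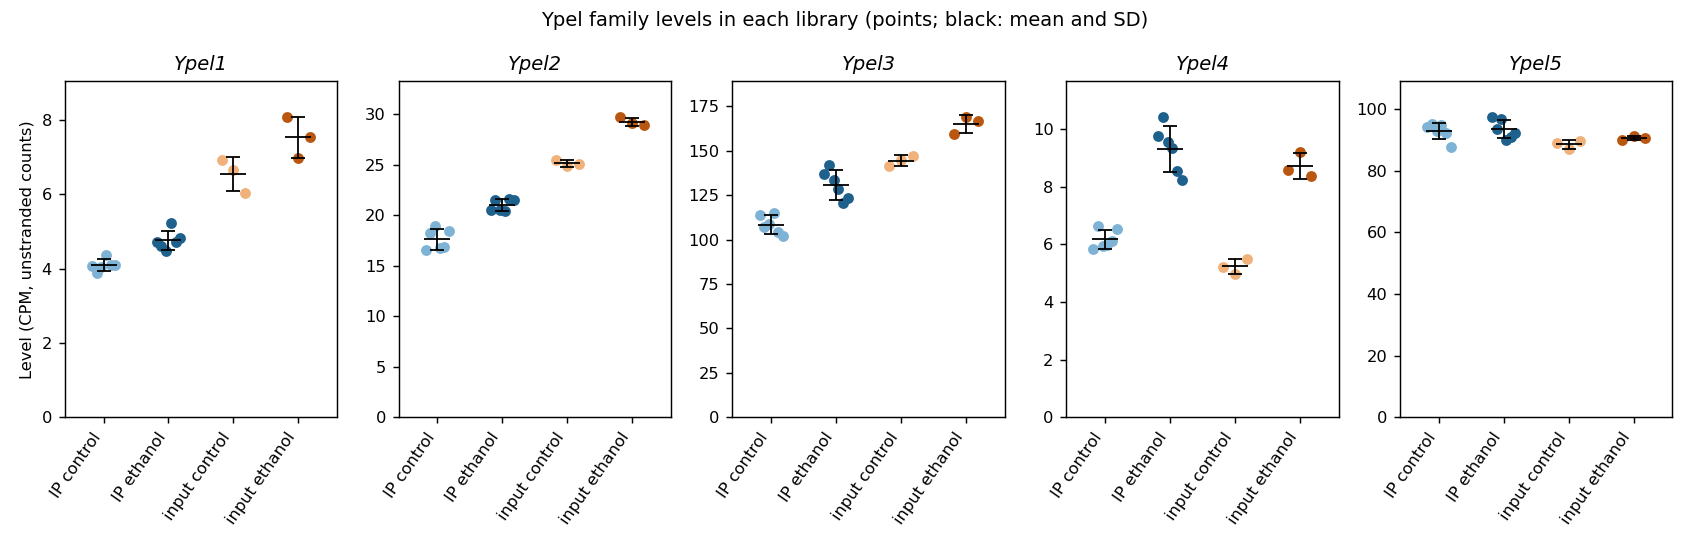
Levels of the 5 members in each library, in CPM from unstranded counts (vertical axes start at 0 and differ between panels), for the 6 IP control, 6 IP ethanol, 3 input control and 3 input ethanol libraries. Points are libraries and black marks the mean and SD; *Ypel4* lies at 5.85 to 6.63 CPM in IP control and 8.23 to 10.4 CPM in IP ethanol, while the 2 IP groups of *Ypel5* overlap.

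*Ypel4*, the member the family was chosen for, was at 5.85, 6.05 and 6.63 CPM (lowest, median and highest library) in IP control and at 8.23, 9.45 and 10.4 CPM in IP ethanol. In input control, replicates 4, 5 and 6 were at 5.23, 4.98 and 5.50 CPM, and in input ethanol at 8.59, 9.20 and 8.36 CPM. Every ethanol library was above every control library of its fraction. The means were 1.52-fold higher in IP (log2 fold change 0.60, SE 0.06) and 1.66-fold higher in input (0.73, SE 0.08). Ranked by log2 fold change among the genes at 5 CPM or more on average, *Ypel4* had place 2 of 10975 in IP and place 1 of 11173 in input, which restates the way it was chosen. The level rests on 467 to 538 read pairs per library in IP control and 611 to 1229 in IP ethanol. With IP replicates 4 to 6 alone the log2 fold change in IP was 0.50.

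**Figure D2:**
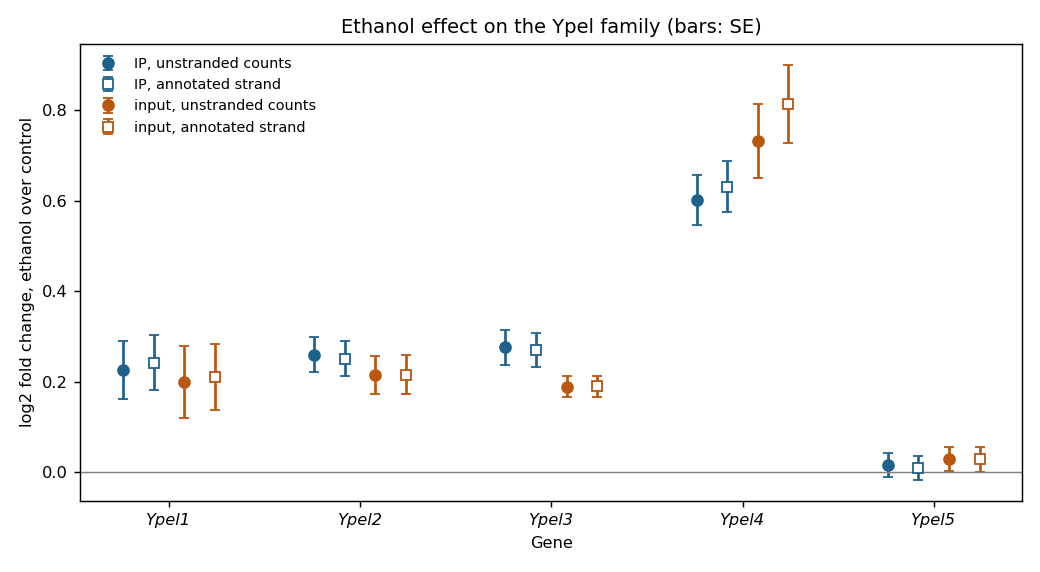
Log2 fold change of ethanol over control for each member, from edgeR, in IP (blue) and input (orange), with unstranded counts (filled circles) and pairs on the annotated strand alone (open squares); bars are SE. *Ypel4* lies at 0.60 to 0.81, *Ypel1*, *Ypel2* and *Ypel3* at 0.19 to 0.28, and *Ypel5* at 0.01 to 0.03.

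The libraries were strand-specific but the deposited table counts pairs without regard to strand, so the pairs on *Ypel4* were split by strand. In input control, 17.4% to 19.8% of the pairs on *Ypel4* exons lay on the strand opposite to the gene, and in input ethanol 12.5% to 14.5%. In IP control the share was 3.69% to 7.28% and in IP ethanol 1.82% to 3.58%. By number, the opposite-strand pairs were 81 to 96 per library in input control, 88 to 108 in input ethanol and 16 to 44 over the IP libraries, so that the ranges of the 2 input groups overlapped and both lay above the IP libraries. No annotated gene overlaps *Ypel4*. Its nearest counted neighbours, both on the opposite strand, were *Clp1*, 6707 bases away, an RNA kinase gene at 8.04 CPM, and *Mir130a*, 2459 bases away, a microRNA precursor at 0.0073 CPM. For *Clp1*, ethanol over control gave -0.07 in IP (adjusted p = 0.42, edgeR) and 0.0032 in input (adjusted p = 0.99), both log2. *Mir130a* did not pass the test in either fraction (adjusted p = 0.77 and 0.70, edgeR).

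**Figure D3:**
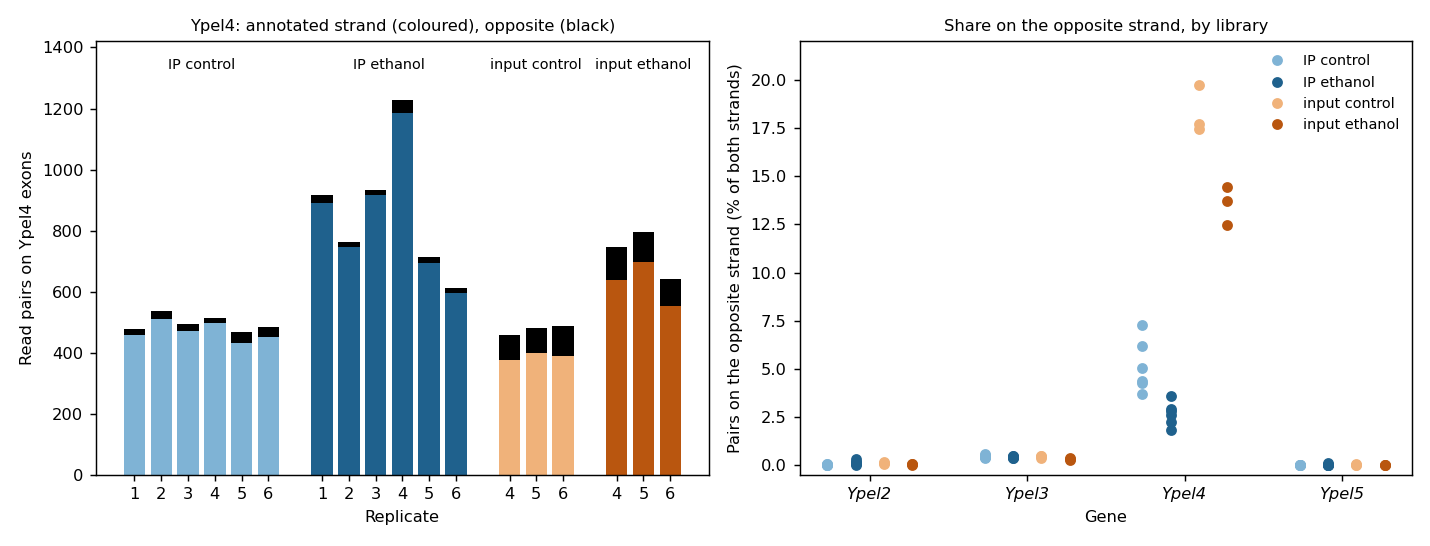
Left, read pairs on *Ypel4* exons in each library, with the annotated strand coloured by group and the opposite strand in black. Right, the share of pairs on the opposite strand in percent, 1 point per library; *Ypel4* reaches 17.4% to 19.8% in input control, while *Ypel2*, *Ypel3* and *Ypel5* stay under 0.6%.

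On the annotated strand alone, *Ypel4* was at 5.38, 5.50 and 6.06 CPM (lowest, median and highest) in IP control and 7.72, 8.84 and 9.80 CPM in IP ethanol. Input control replicates 4, 5 and 6 were at 4.14, 3.96 and 4.25 CPM, and input ethanol at 7.05, 7.73 and 6.94 CPM. The groups again did not overlap. The log2 fold change was 0.63 (SE 0.06) in IP and 0.81 (SE 0.09) in input, so the difference in input was larger than with unstranded counts. Opposite-strand pairs were rare in *Ypel2*, *Ypel3* and *Ypel5*, at 0.59% or less in every library. *Ypel1* is a different case. The 3′ part of its span overlaps *Ppil2*, a cyclophilin-like gene on the opposite strand at 92.3 CPM, by 491 bases, and it also overlaps *Gm9974*, a processed pseudogene with too few pairs to be tested. Pairs on the opposite strand of *Ypel1* made up 51.3% to 73.4% of the pairs on both strands, but in unstranded counting most pairs in a shared part count for neither gene. Counts on the annotated strand were 119% to 121% of the unstranded counts of *Ypel1* in each group.

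The ethanol difference of the other members was smaller. Of these 4, *Ypel1*, *Ypel2* and *Ypel3* rose in IP, against 11.9% of 24495 genes that rose and 21.4% that changed in either direction at an adjusted p below 0.05 (edgeR). *Ypel3* was at 102, 108 and 115 CPM (lowest, median and highest) in IP control and 120.4, 131 and 142 CPM in IP ethanol. It rose by 0.28 on the log2 scale (SE 0.04, adjusted p = 1.5e-05, edgeR), or 1.21-fold. *Ypel2* was at 16.5, 17.6 and 18.9 CPM in IP control and 20.4, 21.0 and 21.6 CPM in IP ethanol, and rose by 0.26 (SE 0.04, adjusted p = 4.1e-07, edgeR). For *Ypel1*, the libraries were at 3.89, 4.10 and 4.38 CPM in IP control and 4.48, 4.72 and 5.23 CPM in IP ethanol, and the gene rose by 0.23 (SE 0.06, adjusted p = 0.0062, edgeR). The lowest ethanol library was above the highest control library for all 3, and also for *Ypel4*, while 5.09% of genes had such a gap in this direction. The call of *Ypel1* did not hold in either set of 3 dishes per treatment, with 0.20 (adjusted p = 0.20, edgeR) in IP replicates 1 to 3 and 0.24 (adjusted p = 0.067) in IP replicates 4 to 6. A correction for GC content and transcript length changed the balance of all called genes in IP from 2911 higher and 2322 lower to 2069 higher and 3256 lower, and left *Ypel1*, *Ypel2* and *Ypel3* higher, at 0.20, 0.22 and 0.25 (adjusted p = 0.017, 2.4e-06 and 5.4e-06, edgeR).

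In input, *Ypel2* and *Ypel3* rose, where 7.21% of genes rose and 15.0% changed in either direction. *Ypel3* was at 141.1, 144.9 and 146.95 CPM in input control (replicates 4, 5 and 6) and 159.4, 168.8 and 166.7 CPM in input ethanol, and rose by 0.19 (log2; SE 0.02, adjusted p = 2.3e-13, edgeR). *Ypel2* was at 25.5, 24.8 and 25.1 CPM in input control and 29.7, 29.1 and 29.0 CPM in input ethanol, and rose by 0.22 (SE 0.04, adjusted p = 1.3e-05, edgeR). *Ypel1* was at 6.94, 6.65 and 6.04 CPM in input control and 8.08, 6.98 and 7.55 CPM in input ethanol, and its log2 fold change of 0.20 (SE 0.08) did not pass the test (adjusted p = 0.073, edgeR). On the annotated strand, where pairs in the part shared with *Ppil2* can be assigned, *Ypel1* passed in input at 0.21 (SE 0.07, adjusted p = 0.029, edgeR). It also passed without input ethanol replicate 5 (0.25, adjusted p = 0.034, edgeR), but without none of the other input libraries. Over the 6 fits that each left out 1 input library, the adjusted p ranged from 0.034 to 0.37 (edgeR). All 5 members, *Ypel5* included, had input ethanol libraries above every input control library, a gap that 14.0% of genes showed in this direction with 3 libraries per group.

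*Ypel5*, the partner of the CTLH complex, did not pass the test in either fraction. It was at 87.8, 93.6 and 95.2 CPM in IP control and 89.9, 92.9 and 97.4 CPM in IP ethanol, and these groups overlapped. Its ethanol difference in IP was 0.016 (log2), with a 95% interval (normal approximation) of -0.04 to 0.07 (adjusted p = 0.75, edgeR). Input control replicates 4, 5 and 6 were at 89.1, 86.9 and 89.5 CPM and input ethanol at 89.9, 91.1 and 90.7 CPM. In input the difference was 0.029, with an interval of -0.02 to 0.08 (adjusted p = 0.58, edgeR). Set against *Ypel5* within each library, which removes the scaling of libraries, *Ypel4* had 6.20% to 7.42% of the pairs of *Ypel5* in IP control and 8.92% to 11.1% in IP ethanol, and 5.74% to 6.15% and 9.22% to 10.1% in input. *Ypel3* had 112% to 121% and 132% to 151.8% of the pairs of *Ypel5* in the IP groups and 158% to 166.7% and 177% to 185% in the input groups. *Ypel2* had 17.5% to 20.9% and 21.0% to 23.7% in IP and 28.0% to 28.6% and 31.9% to 33.0% in input. For *Ypel1* the shares overlapped between the IP groups, at 4.09% to 4.67% and 4.63% to 5.81%, and between the input groups, at 6.74% to 7.78% and 7.66% to 8.99%. With pairs on the annotated strand alone, the *Ypel1* shares overlapped in IP, at 4.89% to 5.87% and 5.73% to 6.89%. In input they then did not overlap, at 8.46% to 9.39% in control and 9.48% to 10.9% in ethanol.

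Set against *Ypel3* and *Ypel2*, the level of *Ypel4* was also higher after ethanol. It had 5.14% to 6.40% of the pairs of *Ypel3* in IP control and 6.69% to 7.33% in IP ethanol. In input, these shares were 3.44% to 3.75% in control and 5.01% to 5.45% in ethanol. Set against *Ypel2*, the shares were 31.5% to 36.5% and 38.2% to 48.5% in IP, and 20.1% to 21.9% and 28.9% to 31.6% in input. These ranges did not overlap between treatments. Set against *Ypel1*, the shares overlapped in IP, at 136% to 170.3% in control and 170.2% to 226% in ethanol. In input they did not overlap, at 75.0% to 91.2% and 106% to 132%. On the annotated strand they did not overlap in IP either, at 109% to 135% and 140% to 185%. All these shares use the *Ypel4* values the family was chosen for and are a description.

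Between fractions, *Ypel1*, *Ypel2* and *Ypel3* were lower in IP than in input, and *Ypel4* and *Ypel5* were slightly higher in IP. This comparison was not used to choose the members, and 51.0% of genes passed it, 25.2% higher and 25.8% lower in IP. *Ypel1* was at 4.43 ± 0.40 CPM in IP (SD, n = 12) and 7.04 ± 0.71 in input (n = 6), lower in IP by a log2 difference of -0.67 (SE 0.05, adjusted p = 2.2e-19, edgeR). *Ypel2* was at 19.3 ± 1.94 CPM in IP and 27.2 ± 2.28 in input, with a log2 difference of -0.50 (SE 0.03, adjusted p = 2.4e-24, edgeR). *Ypel3* was at 119.5 ± 13.4 CPM in IP and 154.6 ± 11.9 in input, with a log2 difference of -0.37 (SE 0.03, adjusted p = 6.2e-10, edgeR). Every IP library of *Ypel1* and *Ypel2* was below every input library, as in 11.9% of genes, whereas the highest IP library of *Ypel3* overlapped the lowest input library. Of 11066 genes that averaged 5 CPM or more, 96.1% had a higher IP over input difference than *Ypel1*, 94.0% than *Ypel2* and 91.0% than *Ypel3*.

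*Ypel4* was at 7.74 ± 1.74 CPM in IP (n = 12) and 6.98 ± 1.93 in input (n = 6), both treatments together, and the log2 fold change of 0.16 (SE 0.05) passed the test (adjusted p = 0.0040, edgeR). On the annotated strand it was 0.35 (SE 0.05, adjusted p = 1.3e-08, edgeR), over 2 times as large. The opposite-strand pairs that this leaves out numbered 293 over the 12 IP libraries and 556 over the 6 input libraries. The call with unstranded counts was lost with dishes as a block (0.11, adjusted p = 0.091, edgeR), in the ethanol libraries alone (0.095, adjusted p = 0.27) and when counts were scaled to total pairs (0.11, adjusted p = 0.054). *Ypel5* was at 93.2 ± 2.77 CPM in IP and 89.5 ± 1.49 in input, higher in IP by 0.058 (log2; SE 0.02, adjusted p = 0.017, edgeR). This call was lost without input control replicate 5 (0.050, adjusted p = 0.060, edgeR), without input ethanol replicate 4 (0.052, adjusted p = 0.053), with dishes as a block (0.025, adjusted p = 0.41) and with total pairs (0.0069, adjusted p = 0.81). In the control libraries alone it was at 0.057 (adjusted p = 0.085, edgeR) and in the ethanol libraries alone at 0.046 (adjusted p = 0.29).

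**Figure D4:**
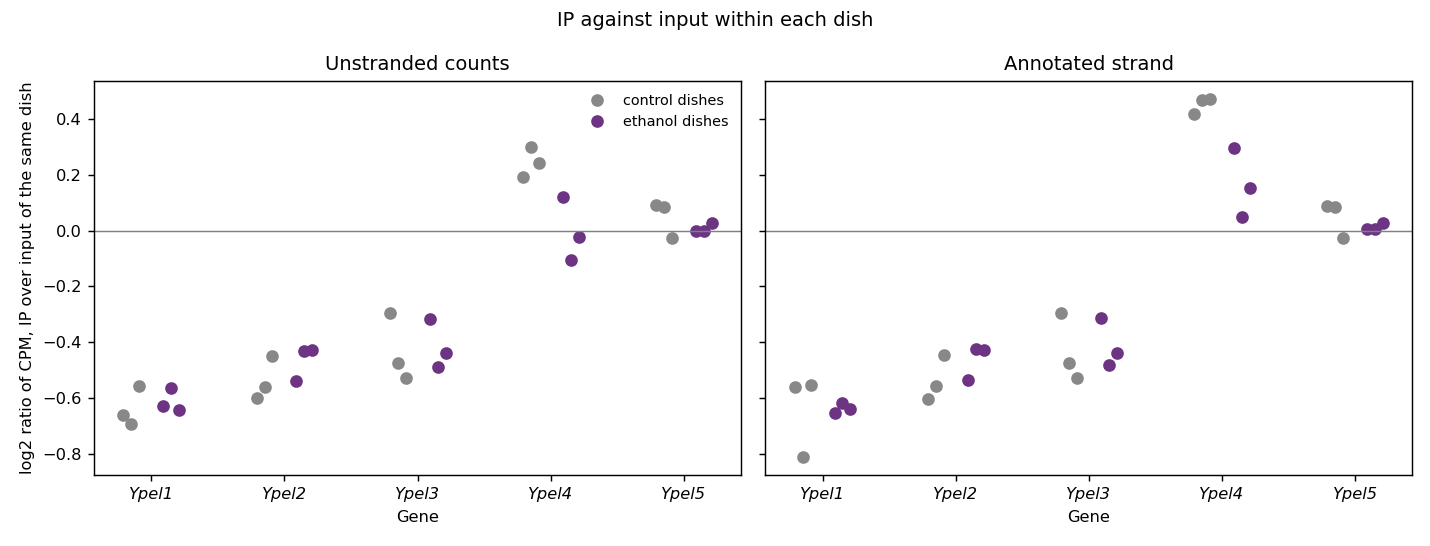
Log2 ratio of CPM in IP over input of the same dish, for the 3 control (grey) and 3 ethanol (purple) dishes that gave both libraries, with unstranded counts (left) and pairs on the annotated strand (right); each point is a dish. *Ypel1*, *Ypel2* and *Ypel3* lie below 0 in all 6 dishes, and *Ypel4* on the annotated strand lies above 0 in all 6.

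Within the 6 dishes that gave both fractions, the log2 ratio of IP over input was -0.69 to -0.56 for *Ypel1*, -0.60 to -0.43 for *Ypel2* and -0.53 to -0.29 for *Ypel3*. For *Ypel5* it was -0.03 to 0.09. *Ypel4* was at 0.19, 0.30 and 0.24 in control dishes 4, 5 and 6 and at 0.12, -0.11 and -0.02 in ethanol dishes 4, 5 and 6. On the annotated strand these ratios were 0.42, 0.47 and 0.47 in control dishes and 0.30, 0.05 and 0.15 in ethanol dishes, above 0 in all 6 and lower in each ethanol dish than in each control dish. Whether ethanol acted differently in the 2 fractions was tested as an interaction, which no gene passed (edgeR, 0 of 24495 at an adjusted p below 0.05; 1459 at an unadjusted p below 0.05; DESeq2 called 2 genes). With dishes as a block, edgeR called 102 genes, none of them *Ypel1*, *Ypel2*, *Ypel3* or *Ypel5*. The log2 difference, IP minus input, was 0.01 for *Ypel1* (95% interval -0.19 to 0.21), 0.03 for *Ypel2* (-0.09 to 0.15), 0.08 for *Ypel3* (-0.05 to 0.20) and -0.02 for *Ypel5* (-0.11 to 0.06). For *Ypel4* it was -0.14 (SE 0.10) with unstranded counts and -0.19 (SE 0.10) on the annotated strand. With dishes as a block these were -0.22 (SE 0.11) and -0.26 (SE 0.11), all given without a test.

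Markers of other cell types also differed between the fractions, where 25.2% of all genes were higher and 25.8% lower in IP. Of 8 microglial markers, 7 were lower in IP, with a median log2 fold change of -2.43, and *Aif1* was at 0.734 ± 0.133 CPM in IP and 3.97 ± 0.71 in input. Fibroblast and meningeal markers were lower for 4 of 5, with summed levels of 188 to 216 CPM in IP and 341 to 352 CPM in input. Astrocyte markers were higher for 8 of 10 and lower for *S100b*. The oligodendrocyte lineage markers summed to 250.1 to 289 CPM in IP and 161 to 184 CPM in input, and neuronal markers to 207 to 231 and 161 to 172 CPM. By gene, the 8 oligodendrocyte lineage markers were split, with 4 higher and 3 lower in IP and a median log2 fold change of 0.01. Of 9 neuronal markers, 5 were higher and 1 lower, with a median of 0.36. Endothelial and mural markers summed to 4.36 to 8.78 CPM. Some defining markers were near 0, with *Mog* (oligodendrocytes) and *Snap25* (neurons) at no more than 0.122 CPM and *Lum* (fibroblasts) at no more than 0.193 CPM in any library. The part of these cells in the fraction difference of *Ypel1*, *Ypel2* and *Ypel3* was not tested, and in bulk samples fewer cells of a type and less RNA per cell cannot be told apart. Between treatments, microglial markers summed to 12.7 to 13.9 CPM in IP control and 12.3 to 16.2 in IP ethanol, and fibroblast markers to 191 to 212 and 188 to 216, so these ranges overlapped. Astrocyte markers summed to 1799 to 1880 CPM in IP control and 1926 to 2000 in IP ethanol, without overlap. Endothelial and mural markers summed to 7.53 to 8.78 and 5.38 to 6.99, also without overlap. In input, astrocyte markers summed to 1167 to 1212 CPM in control and 1222 to 1247 in ethanol. Endothelial and mural markers there summed to 5.36 to 6.16 and 4.36 to 5.09 CPM, and neither pair overlapped. The input sums of microglial and of fibroblast markers overlapped between treatments. Oligodendrocyte lineage sums overlapped narrowly in IP, at 271.3 to 289 and 250.1 to 271.5 CPM. They overlapped in input too, as neuronal sums did in both fractions. By gene, 4 of 10 astrocyte markers rose in IP and 0 fell (median log2 fold change 0.02), where 11.9% of all genes rose. *Aldh1l1* did not pass there (-0.06, adjusted p = 0.093, edgeR). In input, 4 astrocyte markers rose and 3 fell, where 15.0% of all genes changed in either direction. Of 5 endothelial and mural markers tested, 1 fell in IP, as did 2322 of all 24495 genes. The part of these cells in the ethanol differences of the members was not tested.

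Genes related to the family were taken from 4 lists. Of all genes tested, 11.9% rose after ethanol in IP and 7.21% in input, and 21.4% and 15.0% changed in either direction. In IP vs. input, 25.2% of all genes were higher and 25.8% lower. The first held 10 genes of the CTLH complex, the ligase that YPEL5 associates with. In IP, 3 rose and 2 fell after ethanol, with a median log2 fold change of 0.03 against 0.01 for all genes tested. *Rmnd5a*, which encodes a RING subunit, rose by 0.14 (SE 0.03, adjusted p = 0.00022, edgeR), *Gid4*, a substrate receptor, by 0.13 (SE 0.03, adjusted p = 0.00032) and *Wdr26*, a scaffold subunit, by 0.08 (SE 0.03, adjusted p = 0.015). *Maea*, the RING partner of RMND5A, fell, and was at -0.10 (log2; SE 0.02, adjusted p = 0.00066, edgeR). In input, *Gid4* (0.16) and *Rmnd5a* (0.13) rose and *Maea* (-0.08) fell, and the other 7 did not pass. Without IP control replicate 1, IP ethanol replicate 1 or IP ethanol replicate 5, and with the GC and length correction, 3 genes of this list were called in IP in place of 5. In IP vs. input, 4 were higher and 2 lower, led by *Mkln1* at 0.19 and *Ranbp10* at 0.16. None of these ethanol changes reached the size of those of *Ypel2* or *Ypel3*.

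The second list held *Crbn*, *Mis18a* and *Oip5*, whose proteins carry a domain of the Yippee-like fold. *Crbn*, the cereblon ubiquitin ligase receptor, was at 39.2 ± 1.15 CPM in IP ethanol and 38.6 ± 1.62 in IP control, and *Mis18a*, a centromere factor, at 6.36 ± 0.19 and 6.26 ± 0.38, and neither passed the test. *Oip5*, the MIS18A partner, fell in IP from 1.18 ± 0.18 to 0.784 ± 0.224 CPM (log2 fold change -0.58, SE 0.15, adjusted p = 0.0028, edgeR), and was at 1.17 ± 0.19 and 1.15 ± 0.06 CPM in input control and ethanol (adjusted p = 0.96). None of the 3 passed in input, where *Crbn* was at 0.10 (adjusted p = 0.053, edgeR), or in IP vs. input. In input, 1 of the 3 was called with total counts, with DESeq2 size factors in edgeR, with a stricter filter on low counts and with replicate number as a block. In IP vs. input, 2 were called with total counts. There, 1 was called on the annotated strand, in the ethanol libraries alone, and without input control replicate 5 or IP ethanol replicate 3.

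The third list held 20 genes known as p53 targets, since *Ypel3* is one as well. In IP, 8 rose and 1 fell, and in input 10 rose and 1 fell, with medians of 0.02 and 0.04 against 0.01 and -0.00 for all genes. Of all genes, 11.9% rose in IP and 7.21% in input, and 21.4% and 15.0% changed in either direction. *Btg2*, an antiproliferative gene, rose by 0.18 in IP (SE 0.02, adjusted p = 3.5e-08, edgeR) and 0.21 in input (SE 0.02, adjusted p = 1.2e-17). In IP the next were *Sesn2* at 0.15, *Bbc3* at 0.15 and *Sesn1* at 0.14, and in input *Trp53inp1* at 0.20, *Mdm2* at 0.17 and *Ccng1* at 0.15. *Aen*, an exonuclease gene, fell in both fractions (-0.13 and -0.12). *Cdkn1a*, which encodes the cell cycle inhibitor p21 and is the best known p53 target, did not pass (-0.05, adjusted p = 0.096 in IP; -0.06, adjusted p = 0.061 in input; edgeR). No gene of this list reached the log2 fold change of *Ypel3* in IP, 0.28, whereas in input *Btg2* and *Trp53inp1* were above that of *Ypel3*, 0.19. In IP vs. input, 8 were higher and 11 lower, led by *Zmat3* (0.73), *Ei24* (-0.44), *Trp53inp1* (-0.42) and *Perp* (-0.29).

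The last list held 14 proliferation genes, since members of the family are known to slow growth in some cells. All 14 fell after ethanol in IP and all 14 in input, with medians of -0.36 and -0.49. For all genes the medians were 0.005 and -0.0009. Of 24495 genes tested, 2322 fell in IP and 1905 in input at an adjusted p below 0.05 (edgeR). *Plk1*, a mitotic kinase, was at 2.65 ± 0.11 CPM in IP ethanol and 3.72 ± 0.24 in IP control (-0.48, SE 0.08, adjusted p = 1.1e-06, edgeR), and *Prc1*, a midzone spindle protein, at 5.75 ± 0.45 and 7.86 ± 0.24 (-0.44, SE 0.06, adjusted p = 6.6e-09). *Ccna2* (-0.42) and *Mcm5* (-0.41) followed in IP. In input the lowest were *Prc1* (-0.67), *Plk1* (-0.59), *Mki67* (-0.57) and *Bub1* (-0.55). The summed level of the list was 193 to 208 CPM in IP control and 159 to 167.8 CPM in IP ethanol, and 195 to 198 and 144.6 to 155.7 CPM in input. Lower proliferation genes and higher *Ypel* genes thus stood in the same libraries, and the link between them was not tested. In IP vs. input, 4 were higher and 2 lower, with *Ccna2* at -0.28, *Cenpf* at -0.24, *Mcm5* at 0.22 and *Top2a* at 0.18.

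**Figure D5:**
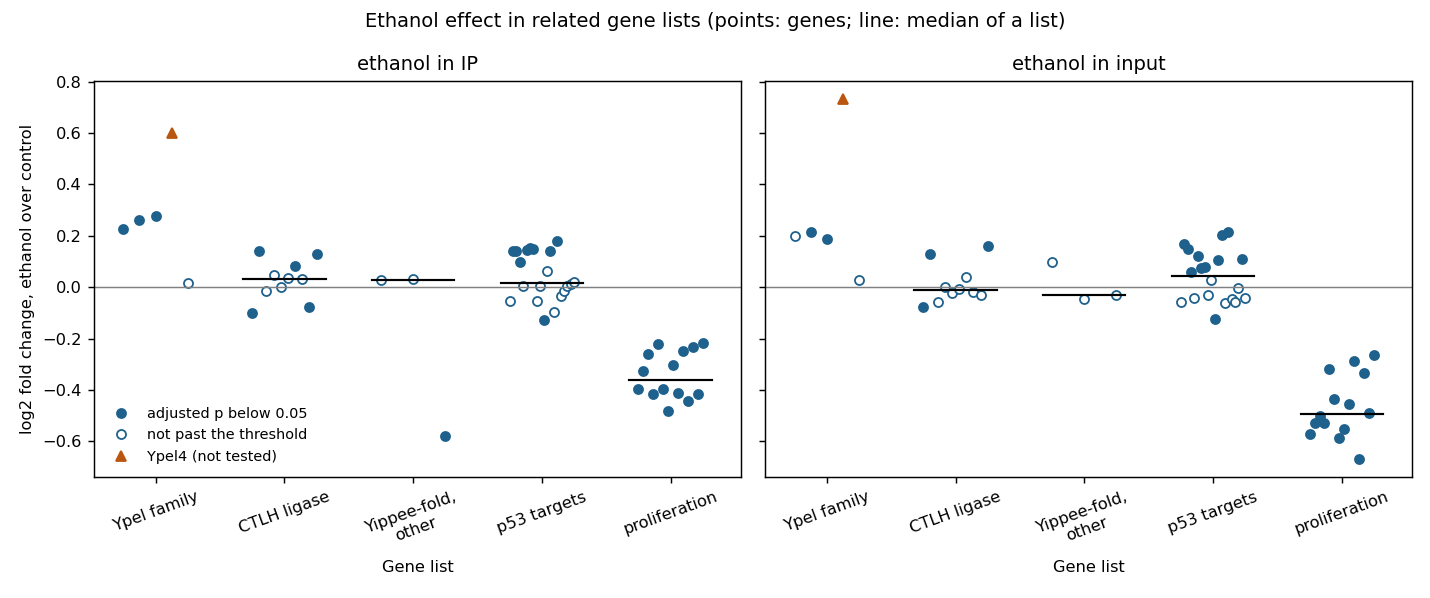
Log2 fold change of ethanol over control for the Ypel family and the 4 related lists in IP (left) and input (right); each point is a gene, filled where the adjusted p was below 0.05 (edgeR), and lines are the medians of the related lists. *Ypel4* is drawn as a triangle because it was not tested; the 14 proliferation genes all lie below 0, with medians of -0.36 and -0.49.

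*Ppil2*, which overlaps *Ypel1*, differed by 0.07 (log2) after ethanol in IP (adjusted p = 0.045, edgeR) and 0.05 in input (adjusted p = 0.24), and was 0.27 higher in IP than in input (adjusted p = 1.8e-19), the direction opposite to that of *Ypel1*. The other neighbours of *Ypel1*, *1700056N10Rik* and *2610318N02Rik*, were at 0.20 CPM each. Next to *Ypel2*, *Dhx40*, a helicase gene 128678 bases away, rose by 0.10 in IP and 0.09 in input (adjusted p = 0.0031 and 0.0086, edgeR), and *Gdpd1*, a phosphodiesterase gene 40159 bases away, by 0.12 and 0.17 (adjusted p = 0.037 and 0.014). *Ypel3* stands 136 bases from *Gm9967*, which lies on the opposite strand, and 968 bases from *Tbx6*, a T-box factor gene. Both were low, at 0.13 and 0.24 CPM, and did not pass in either fraction. *Alk*, next to *Ypel5*, was at 0.85 CPM and *Lbh* at 267 CPM, and neither passed for ethanol.

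The profile most like that of *Ypel4* over the 18 libraries was that of *Atf5*, a stress-response transcription factor gene, with a root mean square difference of 0.15 in centred log2 CPM, among 11066 genes that averaged 5 CPM or more. *Syn1*, a synaptic vesicle gene, followed at 0.17, then *Slc7a4* at 0.17, *Cadps2* at 0.18 and *Spock2*, a proteoglycan gene, at 0.18. *Atf5* had log2 fold changes of 0.46 in IP and 0.37 in input, and *Slc7a4* of 0.61 and 0.44. The list depended on what was compared. Over the 12 IP libraries, 2 of these 5 genes were again among the closest 5, with *Hapln4* (0.10) and *Arrdc3* (0.10) first, and on the annotated strand 1 of 5 was, *Syn1*. For the other members the closest were *Igf2bp2*, *Tgfbr3* and *Ank* to *Ypel1*, *Espn*, *Lipa* and *Bcl2l11* to *Ypel2*, *Trnp1*, *N4bp2l1* and *Tyro3* to *Ypel3*, and *Ckap4*, *St13* and *Rtcb* to *Ypel5*. These differences were 0.08, 0.05, 0.07 and 0.03 for the closest gene of each. Over the 12 IP libraries, 0 of 3 of these genes were again among the closest 3 for *Ypel1*, *Ypel2* and *Ypel5*, and 1 of 3 for *Ypel3*. No member was among the closest genes of another.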

How the data were processed

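The authors trimmed paired reads with Trimmomatic and counted read pairs per gene with STAR on GRCm38; versions are not given in the sources used here. The deposited values are raw counts per gene and library, with no library pooled. The table of all 18 libraries holds unstranded counts and equals the single-library files (0 differences). The annotated strand was read from those files. Unstranded counting left 5.37% to 5.66% of pairs in more than 1 gene, and annotated-strand counting 1.60% to 1.80%. Reads mapped to several places are not counted.

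The filter kept genes whose sum over the 18 libraries was 10 read pairs or more. These were fitted in edgeR 4.0.16 under R 4.3.3 (TMM, robust quasi-likelihood F test), with Benjamini-Hochberg adjustment over 24495 genes and a threshold of 0.05. DESeq2 1.42.0 was an alternative. IP vs. input had a term for treatment. Scripts were tested on simulated data. Likeness used log2 CPM with a prior count of 2 and genes that averaged 5 CPM or more. Transcript lengths came from GENCODE M21, with 51633 of 51912 genes matched, and promoter windows from RefSeq. Symbols were taken from the deposited table, after 26 that had turned into dates were replaced. An input library and the IP library of equal treatment and number share a dish by the study's methods (correlations of deviations from group means 0.02 to 0.15).

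Members and gene lists were chosen with earlier results of these data known. The genes named are the 5 members, up to 4 genes per list and comparison with the largest changes among those called, the neighbours of each member and the 5 genes most like *Ypel4*. *Cdkn1a*, *Aen*, *Crbn*, *Mis18a*, *Aldh1l1*, *Aif1*, *S100b*, *Mog*, *Snap25*, *Lum*, *Hapln4*, *Arrdc3* and the genes closest to the other members were named outside that rule, after their values were seen.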

Additional observations from a re-analysis of the deposited data

Results flagged for a closer look

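In groups of 6 libraries, 30 sets of values of the 5 members were searched for a library far from the other 5, and 2 were found, where chance gives about 1 in 20. Both concern the strand. In IP control replicate 6, 69.0% of the pairs on *Ypel1* lay on the opposite strand (851 of 1233, Wilson 95% interval 66.4% to 71.5%), against 72.2% to 73.4% in the other 5 libraries. In IP ethanol replicate 2, 0.0875% of the pairs on *Ypel5* lay on the opposite strand (6 of 6856, Wilson 95% interval 0.0401% to 0.191%), against at most 1 pair in each of the other 5 libraries. In 4 of those 5 libraries the count was 0, which allows a share of up to 0.0438%. These intervals cover counting error only.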

How the results depend on the processing

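For *Ypel2* and *Ypel3*, the alternatives kept the direction and the call in the ethanol and IP vs. input comparisons, apart from the test against a fold change of 1.2, which called 0 members for ethanol in either fraction. That test called 3 members in IP vs. input, and 95 genes in IP, 55 in input and 4936 in IP vs. input. IP replicates 1 to 3 alone gave 2995 calls in IP, and *Ypel1* was then at 0.20, not past the threshold, as with IP replicates 4 to 6 (0.24). With IP replicates 4 to 6, *Ypel4* was at 0.50 and *Ypel5* turned to -0.0091. *Ypel1* passed in input on the annotated strand (0.21), and *Ypel4* there was at 0.81. Leaving out 1 library at a time gave -0.0058 to 0.027 for *Ypel5* in IP (-0.0058 without IP control replicate 6, -0.000987 without IP ethanol replicate 3) and 0.14 to 0.25 for *Ypel1* in input. It gave 0.048 to 0.065 for *Ypel5* in IP vs. input (0.050 without input control replicate 5 and 0.052 without input ethanol replicate 4, both not past the threshold). The interaction then called 0 to 1 genes, and *Ypel1* in it ranged from -0.042 to 0.068, below 0 without input ethanol replicate 5 (-0.042), input control replicate 4 (-0.029), IP ethanol replicate 4 (-0.019) or IP control replicate 2 (-0.000957), and with the GC and length correction (-0.012). The cause of these changes was not tested.

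In IP vs. input, 3 members were called with total counts, with the dish as replicate block and in the ethanol libraries alone. *Ypel4* was then at 0.11, 0.11 and 0.095, and *Ypel5* at 0.0069, 0.025 and 0.046, and at 0.057 in control libraries. The interaction called 2 genes with DESeq2 and 102 with the dish as replicate block. Added after seeing the data, the block called 36 with the GC and length correction and 104 on the annotated strand, where *Ypel4* was at -0.26.

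Across treatments, dishes have nothing in common but their number (same-number correlations -0.10 to 0.22 in IP and 0.02 to 0.07 in input; 2 of 6 IP control libraries were closest to their own number). The replicate block on that number gave 5782 calls in IP and 3829 in input and changed no call of a member. The genes most like *Ypel4* shared 2 of 5 over the IP libraries and 1 of 5 on the annotated strand. *Ypel1* and *Ypel4* have the fewest read pairs and are the least precise members.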
